A study of Mus musculus with 5 samples.

Results

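The CM2-high spots were the Visium spots that carried the highest score for the cardiomyocyte population CM2. Within each heart section they were the 5% of spots with the highest CM2 score, taken after spots under 1000 unique molecular identifiers (UMIs) had been removed, and they numbered 170 of 3342 spots. The spots were selected on this score, which the authors derived from the same expression values, so differences in scores and genes between CM2-high spots and other spots of a section are given here as a description without a test. They were compared with 1571 CM1-dominant spots, in which the cardiomyocyte population CM1 had the highest score of 11 cell types and which were not among the CM2-high spots.

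All hearts came from wild-type C57BL/6 mice operated at postnatal day 1, either with ligation of the left anterior descending coronary artery (MI) or with a sham operation. Transverse sections 200 µm below the suture were taken 3 or 7 days later, with 1 section each for Sham D3, MI D3 and Sham D7 and 2 sections for MI D7. A Visium spot captures RNA from a small disc of tissue that can hold several cells, and a label-transfer score says how well a spot was predicted to match a type of an earlier single-nucleus reference, not how many of its cells were of that type. The study's supplement describes the MI D7 sections as independent biological samples and each other group as a single one, so the p-values below rest on the spread between 5 sections with 1 group replicated. CM2-high spots numbered 28 of 543 in Sham D3, 19 of 365 in MI D3, 48 of 960 in Sham D7, 35 of 688 in MI D7 replicate 1 and 40 of 786 in MI D7 replicate 2. Median depth per spot ranged from 20842.5 to 53940 UMIs over the sections.

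The neonatal mouse heart can replace lost myocardium for a short time after birth because its cardiomyocytes can still divide. Soon after birth most cardiomyocytes leave the cell cycle, exchange fetal sarcomere proteins for adult ones and turn from glycolysis to fatty acid oxidation. Under injury or wall stress, ventricular cardiomyocytes return to fetal genes such as the natriuretic peptides Nppa and Nppb and skeletal α-actin, Acta1. The study describes CM2 as a cardiomyocyte population with cell cycle genes in the reference, and the cell cycle genes of the CM2-high spots are therefore given in full below.

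CM2 was seldom the main identity of the spots with the most of it. In 15 of the 170 CM2-high spots CM2 was the highest score, whereas CM1 was highest in 79, CM4 in 41, the fibroblast type (FB) in 19 and the endothelial type (EC) in 10. In Sham D3 the highest score was CM1 in 24 of 28 spots, and in Sham D7 it was CM1 in 30 of 48. In MI D3 it was CM4 in 11 of 19, and in MI D7 replicate 2 it was CM4 in 24 of 40 and FB in 12 of 40. MI D7 replicate 1 lay between these, with CM1 in 16 of 35, EC in 9 and CM4 in 5. The same rule therefore picked spots of unlike make-up in the sham and MI sections.

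The score at the limit also differed. The last spot inside the 5% and the first outside it had CM2 scores of 19.2% and 19.1% in Sham D3, and of 17.5% on both sides in Sham D7. In MI D3 these scores were 4.68% and 4.63%. In MI D7 they were 6.18% and 5.96% in replicate 1, and 3.89% and 3.88% in replicate 2. The highest CM2 score of a section was 52.3% in Sham D3, 44.4% in MI D3, 65.7% in Sham D7, 52.0% in MI D7 replicate 1 and 19.7% in MI D7 replicate 2.

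The mean CM2 score of CM2-high spots was lower after MI, with no overlap between the operations. It was 26.0% in Sham D3 and 27.4% in Sham D7, against 10.6% in MI D3, 14.4% in MI D7 replicate 1 and 8.52% in MI D7 replicate 2. The group means were 11.2% ± 2.97 (SD, n = 3) in MI and 26.7% ± 0.987 (SD, n = 2) in sham, a difference of -15.5 percentage points that is given without a test because the score chose the spots. Over all spots of a section the mean CM2 score was also lower after MI, at 1.10%, 1.35% and 0.610% against 4.95% and 4.28% in sham. In the opposite direction, the mean CM4 score of CM2-high spots was 30.3% ± 16.4 (SD, n = 3) in MI and 4.67% in sham, where the sections had 1.95% and 7.38%. The mean FB score was 16.6% ± 7.96 (SD, n = 3) in MI and 4.93% in sham. Neither score overlapped between the operations. Those of CM1 and CM3 did not overlap either. They were lower in MI, at 25.5% and 1.20% against 41.9% and 8.61% in sham. No test is given, as these scores come from the same label transfer as the CM2 score.

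**Figure D1:**
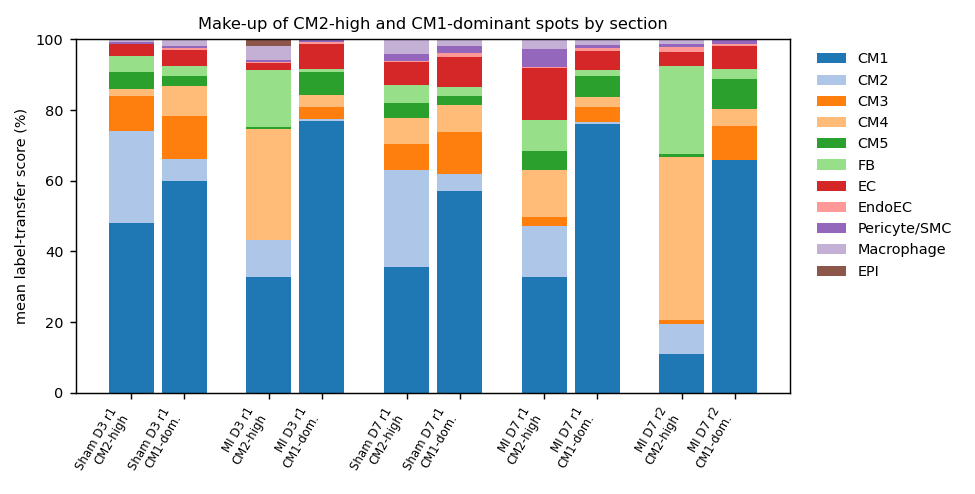
Mean label-transfer score of each of the 11 types (y axis, percent, stacked) in CM2-high and CM1-dominant spots of each section (x axis). CM2 took 26.0% and 27.4% of the score of CM2-high spots in the sham sections and 8.52% to 14.4% in the MI sections, where CM4 took 13.4% to 46.2%.

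CM2-high spots lay together. Of the spots that bordered a CM2-high spot, 10.8% were CM2-high themselves in Sham D3, 23.8% in MI D3, 14.8% in Sham D7, 40.2% in MI D7 replicate 1 and 42.3% in MI D7 replicate 2. Around CM1-dominant spots the corresponding shares ran from 1.18% to 5.43%. Moran's I of the CM2 score over neighbouring spots, a measure of spatial clustering that is near 0 for a random layout, was 0.258, 0.139, 0.248, 0.333 and 0.504 in the same order. At least 1 CM2-high neighbour was found for 14 of 28 CM2-high spots in Sham D3, 13 of 19 in MI D3, 30 of 48 in Sham D7, 29 of 35 in MI D7 replicate 1 and 33 of 40 in MI D7 replicate 2. The neighbours of CM2-high spots had CM4 as their highest score in 37.6% of cases in MI D3, 19.6% in MI D7 replicate 1 and 40.9% in MI D7 replicate 2, against 1.81% in Sham D3 and 4.58% in Sham D7.

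**Figure D2:**
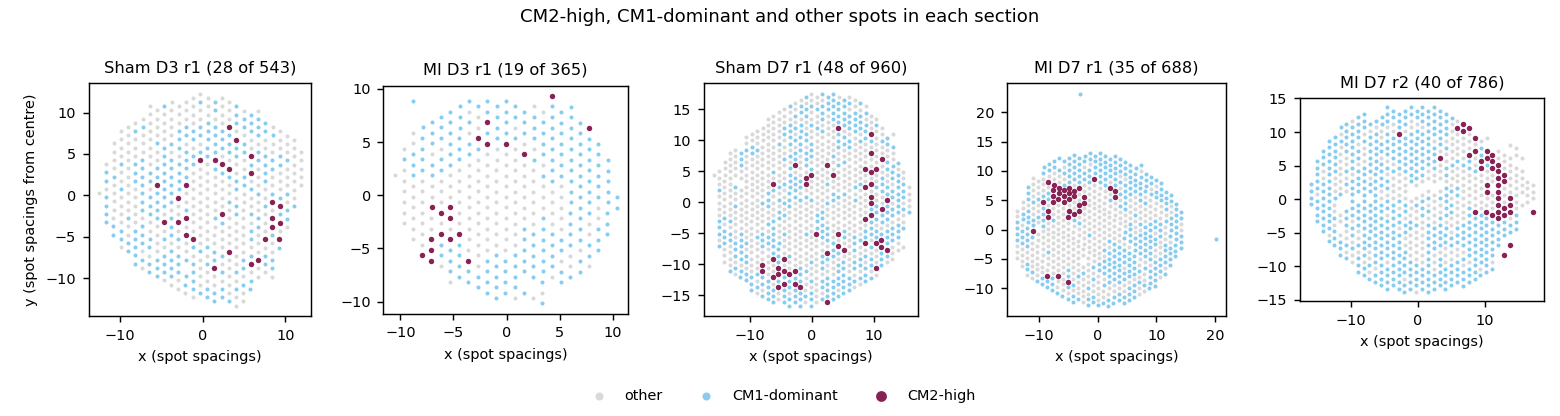
Spots of each section at their position from the section centre (both axes in spot spacings), coloured as CM2-high, CM1-dominant or other, with the number of CM2-high spots of all spots above each map. CM2-high spots lie closest together in the MI D7 sections, where 40.2% and 42.3% of their neighbours were CM2-high.

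None of 5 measures of depth and place in the section passed its test, which 5 sections cannot pass at 0.05. Their median UMI count relative to CM1-dominant spots differed by 0.03 ± 0.13 on the log2 scale (SD, n = 5), higher in 3 of 5 sections (exact sign-flip permutation test, two-sided, p = 0.688). This difference changed sign without MI D3, at -0.0224. Detected genes per spot differed by 0.05 ± 0.07 (log2, SD, n = 5; exact p = 0.25). The share of spots at a section edge was -7.91 ± 11.7 percentage points from that of CM1-dominant spots (SD, n = 5; exact p = 0.25), lower in 4 of 5 sections and higher in MI D7 replicate 2, where 30.0% of CM2-high and 19.9% of CM1-dominant spots were edge spots. All 5 adjusted p-values of this family, which also held the number of neighbours and the distance to the centre, were 0.521 or 0.688.

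To compare genes, each spot was scaled to CPM, the usual unit that sets every spot to the same total, spots of a class were averaged per section, and differences were taken as log2(mean CPM + 1). A gene was called when its mean difference over the 5 sections was at least 0.5 on the log2 scale and its sign was the same in all 5. In the contrast that chose the spots, 331 of 13382 genes were called higher in CM2-high spots (2.47%) and 167 lower (1.25%), and nothing is read from these shares. These counts were 635 and 274 without Sham D3, 649 and 275 without Sham D7, and 508 and 340 without MI D7 replicate 1. They were 352 and 241 without MI D3, and 368 and 239 without MI D7 replicate 2. Agreement among fewer sections is asked for in each of these, and why the counts differ between them was not tested. Under median-of-ratios scaling 226 genes were called higher and 246 lower, and without mitochondrial and haemoglobin genes 240 and 257. The median difference over all genes was 0.04.

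The largest difference among the named genes was that of Nppa (GRCm38 chr4:148000722-148002079, plus strand), which encodes atrial natriuretic peptide and is switched off in the working ventricle after birth. Its mean level in CM2-high spots was 1167 CPM in Sham D3, 18805 in MI D3, 838 in Sham D7, 176 in MI D7 replicate 1 and 5936 in MI D7 replicate 2. CM1-dominant spots of the same sections had 514, 3164, 209, 52.6 and 410 CPM. CM2-high spots were higher in each section, by 2.26 ± 1.02 on the log2 scale (SD, n = 5), although the level itself ranged widely from section to section. The spots overlapped, as CM2-high spots of Sham D3 ran from 303 to 3269 CPM around a median of 783, and CM1-dominant spots from 0 to 5719 around a median of 258. In Sham D3, whose values are raw counts, this rested on 731 UMIs in CM2-high and 2473 in CM1-dominant spots.

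Other genes of the immature and stressed cardiomyocyte were higher as well. Nppb (chr4:147985788-147987205, plus strand), the brain natriuretic peptide gene next to Nppa, had 183, 668, 351, 206 and 547 CPM in CM2-high spots and 114, 178, 213, 103 and 192 CPM in CM1-dominant spots, in the order Sham D3, MI D3, Sham D7 and the MI D7 replicates. Acta1, skeletal α-actin, had 137, 851, 263, 54.7 and 1570 CPM against 98.7, 121, 154, 41.9 and 167 CPM. Xirp2 (chr2:67446002-67526614, plus strand), an actin-binding protein of the intercalated disc, had 16.1, 238, 58.9, 43.2 and 229 CPM against 10.96, 18.9, 34.9, 27.1 and 39.8 CPM. The mean differences were 1.16 ± 0.53, 1.53 ± 1.37 and 1.60 ± 1.38 (log2, SD, n = 5), and those of Acta1 and Xirp2 were largest in MI D3 and MI D7 replicate 2.

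**Figure D3:**
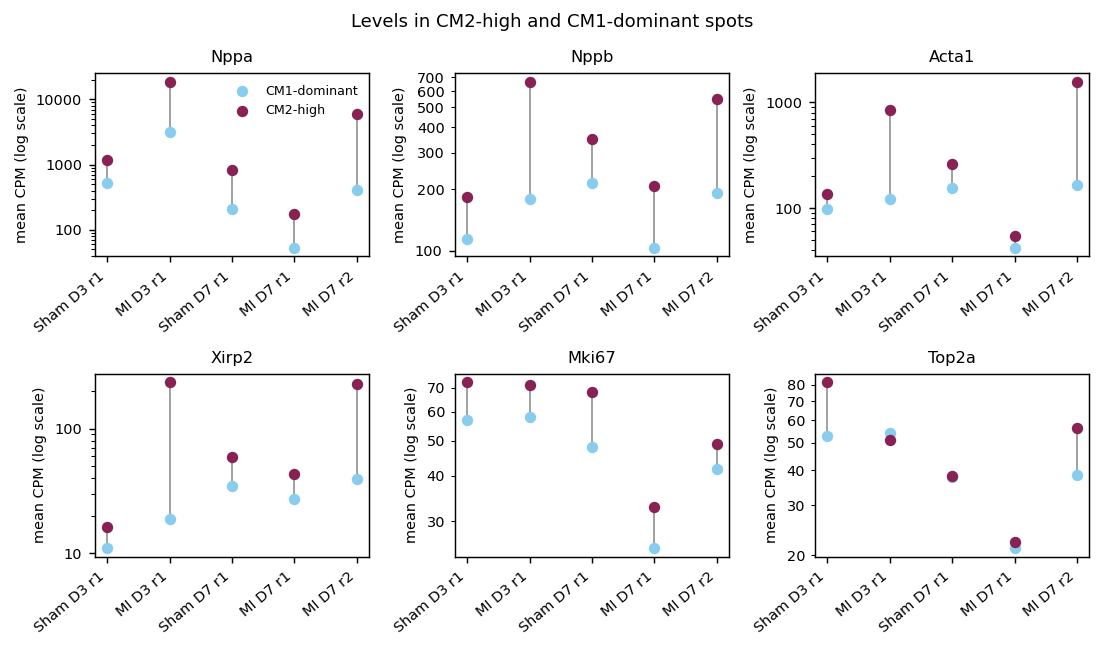
Mean level (y axis, CPM, log scale) of 6 genes in CM2-high and CM1-dominant spots of each section (x axis), joined by a line. Nppa, Nppb, Acta1, Xirp2 and Mki67 were higher in CM2-high spots in 5 of 5 sections, and Top2a in 4 of 5.

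Of the 9 genes listed for immature cardiomyocytes, 6 were called higher and 0 lower, where 2.47% of all genes were called higher and 1.25% lower, and the median difference was 0.79 beside 0.04 for all genes. Besides Nppa, Nppb and Acta1 these were Ankrd1, a stretch-responsive nuclear protein, at 0.76 ± 0.38, Myl9, a smooth muscle myosin light chain, at 0.79 ± 0.56, and Acta2, smooth muscle actin, at 0.52 ± 0.27 (log2, SD, n = 5). The fetal sarcomere genes Myh7 and Tnni1 of the list did not share this. Myh7, the fetal myosin heavy chain, differed by 0.12 ± 0.30, higher in 2 of 5 sections, and Tnni1, the fetal troponin I, by -0.41 ± 0.33, lower in 5 of 5. The summed level of the list was 3721 to 28687 CPM in CM2-high spots and 2646 to 10262 CPM in CM1-dominant spots.

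The start regions of Nppa, Acta1 and Xirp2 are shown because these 3 cardiomyocyte genes were among those with the largest differences. The sequences are the 250 bases before the RefSeq start, from GRCm38.p6, read 5′ to 3′ on the strand of the gene. They lie at chr4:148000472-148000721 (Nppa, plus strand), chr8:123894776-123895025 (Acta1, minus strand) and chr2:67445752-67446001 (Xirp2, plus strand). Capitals mark the MCAT element CATTCC, the serum response element known as the CArG box and the TATA box TATAAA, each searched on both strands, and no marked runs overlapped.
Nppa: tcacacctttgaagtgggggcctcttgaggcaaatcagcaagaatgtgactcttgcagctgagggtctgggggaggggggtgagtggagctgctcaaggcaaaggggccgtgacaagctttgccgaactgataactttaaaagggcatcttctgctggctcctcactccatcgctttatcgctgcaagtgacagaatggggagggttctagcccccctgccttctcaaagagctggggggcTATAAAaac
Acta1: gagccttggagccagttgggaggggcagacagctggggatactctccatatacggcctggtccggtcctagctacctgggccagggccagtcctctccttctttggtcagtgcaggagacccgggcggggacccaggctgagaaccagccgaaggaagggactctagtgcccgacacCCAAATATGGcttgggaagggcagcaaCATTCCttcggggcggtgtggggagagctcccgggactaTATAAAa
Xirp2: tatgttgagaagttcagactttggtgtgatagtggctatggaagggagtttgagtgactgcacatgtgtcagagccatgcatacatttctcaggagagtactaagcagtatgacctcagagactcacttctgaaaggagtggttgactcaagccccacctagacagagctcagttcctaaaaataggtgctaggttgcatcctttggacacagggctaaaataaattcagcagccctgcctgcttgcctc
Acta1 held all 3 motifs, with the CArG box 73 to 64 bases and the MCAT element 46 to 41 bases before the start. Nppa held the TATA box, 9 to 4 bases before the start, and the Xirp2 window held none of these letters. Of the 9 genes listed for immature cardiomyocytes, 8 had such a window, and 5 of these 8 held an MCAT element and 2 a CArG box. Over all 32851 RefSeq windows of this length, 12.6% held an MCAT element, 1.47% a CArG box and 12.4% a TATA box. These matches are letters in a window and describe no binding.

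Several of the other genes named for their size encode secreted or matrix proteins. Col8a1, a short-chain collagen, differed by 1.74 ± 1.64, Cthrc1, a secreted protein of activated fibroblasts, by 1.69 ± 0.96, Adamtsl2 by 1.39 ± 1.21, Mfap4, a microfibril protein, by 1.32 ± 1.006, and the proteoglycan Bgn by 1.14 ± 0.97 (log2, SD, n = 5). Pi16 differed by 1.22 ± 0.63, the procollagen protease Adamts2 by 1.13 ± 0.87 and Fibin by 1.13 ± 1.04. Krt18, a keratin of simple epithelia, differed by 1.73 ± 1.31, the lactate exporter Slc16a3 by 1.12 ± 1.24 and the unnamed gene 2200002D01Rik by 1.26 ± 0.71. With only the CM2-high spots whose highest score was CM1, Fibin turned to -0.66 and 2200002D01Rik to -0.0211, Cthrc1, Adamtsl2, Bgn and Slc16a3 were no longer called, at 0.47, 0.34, 0.43 and 0.53, and Col8a1, Mfap4, Pi16, Adamts2 and Krt18 still were, between 0.64 and 0.86.

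The fibroblast list was also higher than in CM1-dominant spots. Of its 12 genes, 7 were called higher and 0 lower, beside 2.47% and 1.25% of all genes, and the median difference was 0.72 beside 0.04 for all genes. Postn, a matrix protein of activated fibroblasts, had 585, 1373, 500, 489 and 1747 CPM in CM2-high spots and 445, 474, 398, 353 and 506 CPM in CM1-dominant spots. The summed level of the list in CM2-high spots was 3549 CPM in Sham D3, 9709 in MI D3, 4129 in Sham D7, 5509 in MI D7 replicate 1 and 13282 in MI D7 replicate 2, and it was 3178 to 4819 CPM in CM1-dominant spots. Set against all spots of a section, the order was not the same everywhere. Col1a1 had 452, 469 and 689 CPM in CM2-high spots of Sham D3, Sham D7 and MI D7 replicate 1, below the all-spot means of 687, 638 and 822 CPM, and 1996 and 2497 CPM in MI D3 and MI D7 replicate 2, above the all-spot means of 1230 and 1295 CPM. The median Spearman's rho of the fibroblast list with the CM2 score over all spots was -0.30 in Sham D3, 0.30 in MI D3, -0.26 in Sham D7, -0.08 in MI D7 replicate 1 and 0.22 in MI D7 replicate 2. The macrophage list had 0 of 10 genes called, with a summed level of 81.6 to 1258 CPM in CM2-high and 101 to 360 CPM in CM1-dominant spots, and section sums of 1258 against 360 CPM in MI D3 and 450 against 137 CPM in MI D7 replicate 2. The part of these other cells in the differences was not tested, and more cells of a type cannot be told apart from more RNA per cell in a spot.

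Working cardiomyocyte genes as a list differed little in the sham sections and MI D7 replicate 1, with medians of 0.04, 0.01 and 0.09. They were lower in MI D3 and MI D7 replicate 2, with medians of -0.24 and -0.37. Of the 15 genes listed for cardiomyocytes 0 were called, with a median of -0.10, and Actc1, cardiac α-actin, was higher in 4 of 5 sections at 0.16 ± 0.19. Atp2a2, the calcium pump of the sarcoplasmic reticulum, differed by -0.41 ± 0.51, with -1.04 in MI D3 and -0.87 in MI D7 replicate 2 beside -0.09 to 0.03 in the other sections. The list summed to 58587 to 84268 CPM in CM2-high spots and 68134 to 82810 CPM in CM1-dominant spots. Of 8 measured genes of the atrium and conduction system 2 were called higher, beside 2.47% of all genes, namely the atrial light chain Myl4 at 0.64 ± 0.54 and the gap junction gene Gja5 at 0.88 ± 0.65. With only the CM2-high spots whose highest score was CM1, Gja5 turned to -0.82 and 0 of 7 measured genes of this list were called.

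Transcripts of the mitochondrial genome were lower. Of the 13 listed, 11 were lower in all 5 sections, where 2.82% of all genes were, although only mt-Nd6, a complex I subunit, passed the size limit, at -0.50 ± 0.25 (log2, SD, n = 5). Their share of all values was 13.3% in CM2-high and 16.6% in CM1-dominant spots of Sham D3, 10.1% and 17.2% in MI D3, 14.8% and 16.3% in Sham D7, 22.7% and 28.1% in MI D7 replicate 1, and 15.3% and 17.1% in MI D7 replicate 2. The median of the 13 was -0.35, and -0.17 with only the CM2-high spots whose highest score was CM1. In that subset the MI D7 replicate 2 median was 0.09. Nuclear genes of the respiratory chain had 0 of 17 called, and genes of fatty acid use 0 of 13, and both lists split the sections. Their medians were 0.04 and 0.10 in Sham D3, 0.04 and 0.01 in Sham D7 and 0.04 and 0.07 in MI D7 replicate 1, against -0.35 and -0.64 in MI D3 and -0.38 and -0.46 in MI D7 replicate 2. Of 16 glycolysis genes 1 was called higher, beside 2.47% of all genes, the phosphoglycerate mutase Pgam1, at 0.51 ± 0.40. The haemoglobin gene Hbb-bs was lower in 5 of 5 sections at -0.55 ± 0.35, and proteasome subunits had 0 of 14 called, with a median of 0.06.

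Among called genes with at least 20 CPM in CM1-dominant or CM2-high spots, those with the largest differences towards lower levels in CM2-high spots were led by Lrtm1 at -0.79 ± 0.54 and Hey2, a Notch target that marks the compact layer of the ventricular wall, at -0.77 ± 0.46 (log2, SD, n = 5). Hey2 had 20.4, 17.9, 4.43, 7.97 and 14.1 CPM in CM2-high spots and 42.0, 45.8, 9.11, 12.1 and 15.2 CPM in CM1-dominant spots, and was lower in each section. The others were Gm47101, Eprn, Efnb3, an ephrin ligand, Usp2, a circadian ubiquitin protease, Ttc27, Ddc, Fgf13 and Dgat2, which makes triglyceride, between -0.72 and -0.55. With only the CM2-high spots whose highest score was CM1, Hey2, Eprn and Dgat2 kept their call. Lrtm1, Gm47101, Efnb3, Usp2, Ttc27, Ddc and Fgf13 were no longer called there.

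**Figure D4:**
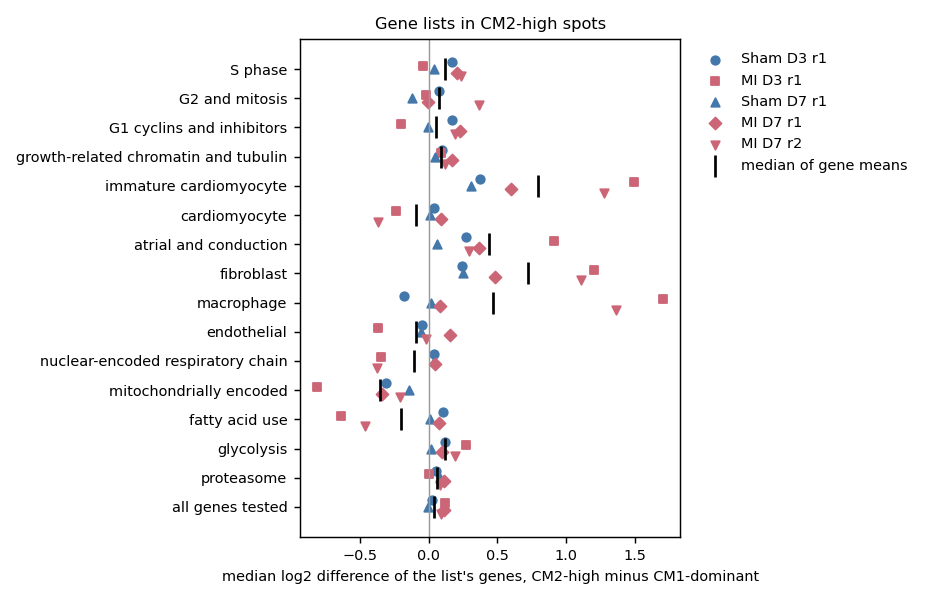
Median log2 difference between CM2-high and CM1-dominant spots over the genes of each list (x axis), per section (symbols; blue sham, red MI) and for the means over sections (black bars), for 15 lists and all genes. Cell cycle lists lie near the all-gene median of 0.04, and the immature cardiomyocyte and fibroblast lists lie at 0.79 and 0.72, with the highest values in MI D3 and MI D7 replicate 2.

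Cell cycle genes as groups were close to the rest of the genome. Of 30 S phase genes 0 were called in either direction and the median difference was 0.12, and of 42 genes of G2 and mitosis 0 were called and the median was 0.07, beside 0.04 for all genes. Section medians of the S phase list were 0.17, -0.04, 0.04, 0.21 and 0.23, and those of the G2 and mitosis list were 0.08, -0.02, -0.12, -0.00 and 0.36, in the order Sham D3, MI D3, Sham D7 and the MI D7 replicates. The G2 and mitosis median changed sign without MI D7 replicate 2, at -0.01, and under median-of-ratios scaling, at -0.00345. Such scaling shifts all genes of a profile by nearly the same amount, so that change of sign is not particular to the list. The median was larger, at 0.18, with the top 10% of spots and, at 0.16, with CM1-dominant spots matched on UMI count. Of 19 G1 cyclins and cell cycle inhibitors 0 were called, with a median of 0.05.

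Single cell cycle genes showed the same mixture. Of all 72 S phase and mitotic genes, 5 were higher in all 5 sections, or 6.94%, where 8.49% of all genes were, and 1 was lower in all 5, where 2.82% of all genes were. The 5 were Mki67, Kif23, Hells, Dtl and Clspn and the lower gene was Kif11, all picked out here after their values were seen. Mki67, which encodes the proliferation antigen Ki-67, had 72.6, 71.2, 67.9, 32.9 and 49.1 CPM in CM2-high spots and 57.0, 58.0, 48.0, 25.2 and 41.7 CPM in CM1-dominant spots, a difference of 0.34 ± 0.10 (log2, SD, n = 5). Over all spots of a section Mki67 had 66.2, 73.7, 55.7, 30.9 and 47.6 CPM, so in MI D3 the CM2-high spots were below the section mean. In the raw counts of Sham D3 it had 47 UMIs in CM2-high and 277 in CM1-dominant spots, or 73.7 pooled CPM (95% exact Poisson interval 54.2 to 98.0) against 57.0 (50.5 to 64.1), intervals that overlap and cover counting error only.

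Other mitotic genes did not hold their sign. Cdk1, the kinase that starts mitosis, was higher in 4 of 5 sections at 0.23 ± 0.26, and Top2a, the topoisomerase that untangles replicated chromosomes, in 4 of 5 at 0.23 ± 0.32. Cenpa, the centromeric histone, differed by -0.04 ± 0.19 and Ube2c, a mitotic ubiquitin ligase partner, by 0.00 ± 0.38. The largest differences in size were lower values of genes at low level, with the cyclin Ccne2 at -0.82 ± 0.65, the formin Diaph3 at -0.53 ± 0.79 and the spindle motor Kif11 at -0.48 ± 0.37. Pcna, the sliding clamp of replication and the most abundant S phase gene, differed by 0.13 ± 0.29. Genes of growth-related chromatin and tubulin had a median difference of 0.09, and 9 of 12 had a mean above 0. Of the 12, 5 were higher in all 5 sections, where 8.49% of all genes were, among them Tubb5 at 0.28 ± 0.14 and Ptma at 0.14 ± 0.10. Since the cell cycle lists did not stand apart from all genes, the spots are named here by their score alone.

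Since the make-up of CM2-high spots differed between sections, the comparison was repeated with the 79 CM2-high spots whose highest score was CM1, an alternative added after the data were seen. Nppa was higher in these in 5 of 5 sections, by 1.47 ± 0.28 (log2, SD, n = 5), Acta1 by 0.97 ± 0.70, Xirp2 by 1.02 ± 0.84 and Nppb by 0.86 ± 0.38. Mki67 was also higher in 5 of 5, by 0.35 ± 0.17. Of the 9 immature cardiomyocyte genes 3 were called higher in place of 6, where 1.01% of all genes were, and the list median fell from 0.79 to 0.44. Ankrd1, Myl9 and Acta2 were no longer called, at 0.44, 0.31 and 0.22. Collagen differences shrank, with Col1a1 at 0.24 ± 0.23 where all CM2-high spots had 0.83 ± 0.91, and 1 of 12 fibroblast genes was called in place of 7, where 134 of 13219 genes were called higher (1.01%) and 488 lower (3.69%). The median of the S phase list was -0.08 and that of the G2 and mitosis list -0.04, while the median over all genes moved to -0.12. In MI D7 replicate 2 this set held 3 spots, and in MI D3 it held 6.

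The genes that followed the CM2 score most closely across all spots of a section did so weakly. Spearman's rho between score and level, averaged over the 5 sections, was 0.29 for Nppb and for Nppa, 0.27 for Actc1, 0.26 for Des, the muscle intermediate filament, and 0.25 for Aldoa, an aldolase. The 5 rho values of Nppb ran from 0.22 to 0.36, and those of Actc1 from -0.15 in MI D7 replicate 2 to 0.56 in Sham D3. Mki67 had a mean rho of 0.04, and the median rho was 0.01 for both the S phase and the G2 and mitosis list. The cardiomyocyte list had a median rho of 0.43 in Sham D3, 0.31 in Sham D7, 0.19 in MI D7 replicate 1, -0.19 in MI D3 and -0.30 in MI D7 replicate 2. These values are descriptions over spots, which share a library and its depth.

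Whether the genes of CM2-high spots differed with MI was tested across the 5 sections, as the operation was not used to choose the spots. In CM2-high spots 0 of 13135 genes (0%) passed an adjusted p of 0.05 in limma, in a model of operation and day that left 2 residual degrees of freedom. At an unadjusted p under 0.05 there were 897 genes higher with MI and 366 lower, or 834 and 531 under median-of-ratios scaling. Without MI D7 replicate 1 the count was 913. The lowest p-values were those of Tyrobp, a myeloid signalling adaptor, with an MI effect of 2.40 ± 0.34 (log2, SE), Htra3, a secreted protease, with 1.44 ± 0.23, AI506816 with 3.61 ± 0.58, Mxra8, a matrix remodelling protein, with 2.003 ± 0.33, each with a limma adjusted p of 0.264, and the lipoprotein Apoe with 2.41 ± 0.41 (limma adjusted p = 0.266). Tyrobp had 144, 27.8 and 39.5 CPM in the MI sections and 16.3 and 8.16 CPM in the sham sections, which did not overlap. The MI effect was above 0 for 56.0% of the 13135 genes, with a median of 0.07. It was above 0 for 10 of 10 macrophage genes, 12 of 12 fibroblast genes and 0 of 15 cardiomyocyte genes, with medians of 2.36, 0.97 and -0.34. Other lists were as one-sided, with 6 of 6 blood genes (median 1.49) and 5 of 5 endocardial genes (0.70) above 0, and 0 of 17 respiratory chain genes (-0.43) and 0 of 13 genes of fatty acid use (-0.45). None of these genes passed the test. The cell cycle lists had medians of -0.26 (S phase) and -0.27 (G2 and mitosis), and 0 of their genes passed.

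The difference between CM2-high and CM1-dominant spots was itself larger with MI for 36 of 13382 genes (0.269%) and smaller for 1 (0.00747%), by limma on the per-section differences with day as a covariate. The score that chose the spots came from these same values, and its limit was 17.5% or more in sham and 6.18% or less in MI. The p-values of this fit therefore cannot tell an effect of MI from a difference in how the spots were chosen. Most of these calls depended on the scaling, as 2 genes passed upwards and 0 downwards under median-of-ratios scaling, which moved the median effect over all genes from 0.11 to 0.01, and likewise 2 and 0 with CM1-dominant spots matched on UMI count, where that median was 0.06. Tagln (chr9:45929619-45936058, minus strand), which encodes the smooth muscle actin-binding protein transgelin, had 9.90 CPM in CM2-high spots of Sham D3, 211 in MI D3, 19.9 in Sham D7, 39.2 in MI D7 replicate 1 and 138 in MI D7 replicate 2. On the log2 scale it differed from CM1-dominant spots by -0.42 in Sham D3, by 0.08 in Sham D7 and by 1.49 to 3.07 after MI, an MI effect of 2.55 ± 0.35 (SE; limma adjusted p = 0.000162). Clu (chr14:65968483-65981547, plus strand), the secreted chaperone clusterin, had 48.1 and 92.6 CPM in CM2-high spots of the sham sections and 3091, 65.2 and 1243 CPM in those of MI D3 and MI D7, with an MI effect of 2.29 ± 0.42 (SE; limma adjusted p = 0.00948). Clu barely parted the operations in MI D7 replicate 1, where its difference of 0.93 lay next to the 0.88 of Sham D7. Xirp2 was also among the 36, at 1.80 ± 0.37 (SE; limma adjusted p = 0.0212).

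Matrix genes were also among the 36. Eln, which encodes elastin, had an MI effect on the difference of 1.80 ± 0.32 (SE; limma adjusted p = 0.00706), and Col1a1, the main fibrillar collagen, of 1.245 ± 0.26 (SE; limma adjusted p = 0.0227). Of the fixed lists, 3 of 12 fibroblast genes (Col1a1, Col1a2 and Mfap4), 2 of 9 immature cardiomyocyte genes (Tagln and Myl9), 1 of 10 macrophage genes (Tyrobp) and 0 of 72 S phase and mitotic genes passed upwards, beside 0.269% of all genes, in the scaling that gave 36 genes and not the 2 of median-of-ratios scaling. The other large effects were those of low genes, namely the long noncoding Gm50114 at 3.37 ± 0.72 (limma adjusted p = 0.0251), the guidance ligand Slit3 at 2.99 ± 0.68 (limma adjusted p = 0.0456), the matrix protein Tgfbi at 2.67 ± 0.59 (limma adjusted p = 0.0356) and, in the other direction, the zinc finger gene Zfp51 at -2.74 ± 0.64 (limma adjusted p = 0.0495). Gm50114 and Slit3 were listed at 0 in the CM2-high spots of both sham sections and Zfp51 in those of MI D3, so their fitted sizes depend on the added pseudocount.

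The CM4 and FB scores of CM2-high spots, 30.3% and 16.6% in MI and 4.67% and 4.93% in sham, moved with this result, and their part in it was not tested. With only the 79 CM2-high spots whose highest score was CM1, 0 genes passed in limma, while an unadjusted p under 0.05 was reached by 38 genes upwards and 85 downwards. Tagln kept its order there, with a log2 difference of -0.46 in Sham D3 and -0.11 in Sham D7 against 1.36 in MI D3 and 0.76 and 2.35 in the MI D7 replicates, and the prior degrees of freedom of the fit fell from 33.3 to 9.34. The count was 3 without Sham D3, 3 without MI D3, 221 without Sham D7, 563 without MI D7 replicate 1 and 12 without MI D7 replicate 2. Of the 6 genes named for the largest effects, Tagln passed under 12 of 13 alternatives (adjusted p from 8.36e-18 to 1.00 by limma) and Clu under 9 of 13. Gm50114 passed under 5, Tgfbi and Zfp51 under 4 and Slit3 under 2 of these 13. Fits with a section left out had 1 residual degree of freedom, so their counts and p-values are less certain.

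**Figure D5:**
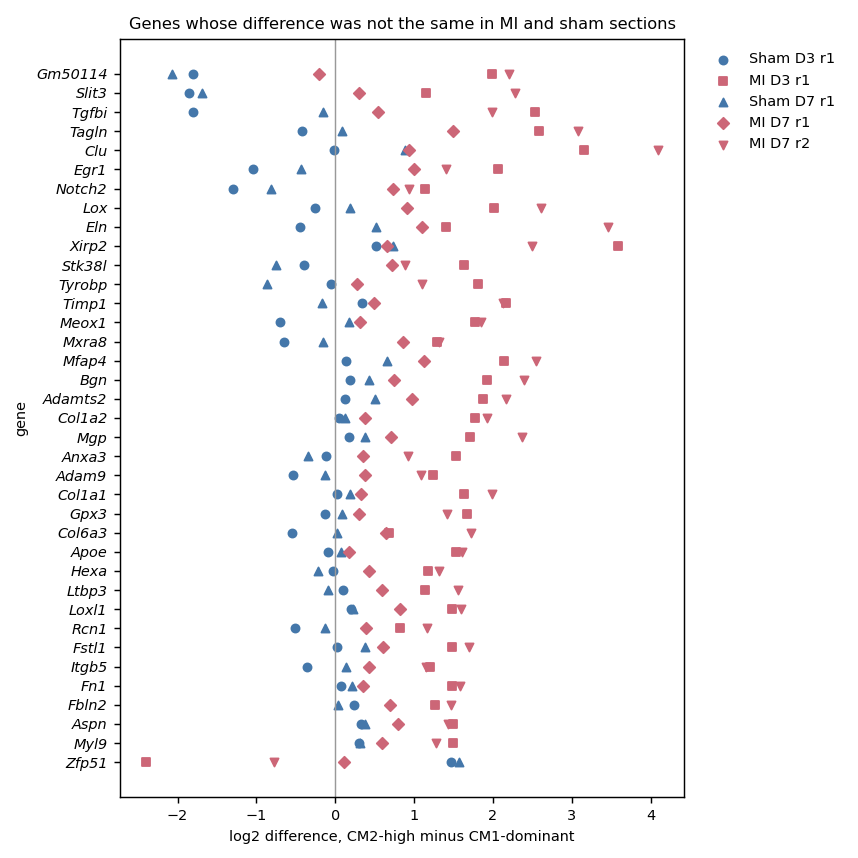
Log2 difference between CM2-high and CM1-dominant spots (x axis) in each section (symbols; blue sham, red MI) for the 37 genes whose difference passed the limma test for MI (y axis, ordered by effect). Tagln runs from -0.42 and 0.08 in sham to 1.49 to 3.07 in MI.

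Between day 3 and day 7, 0 of 13135 genes (0%) passed in CM2-high spots in limma with the operation in the model, and 284 were above and 864 below their day 3 level at an unadjusted p under 0.05. This balance turned with the scaling, to 616 above and 437 below under median-of-ratios scaling, where 10 genes passed and the median effect over all genes was 0.00 in place of -0.18. Without MI D7 replicate 1 the count was 134. The genes with the lowest p-values each had a limma adjusted p of 0.0865. Day 7 levels were higher for Lrtm1, by 2.61 ± 0.34, and Strit1, an activator of the calcium pump, by 2.48 ± 0.37 (log2, SE). They were lower for Pdk4, a brake on glucose oxidation, at -1.93 ± 0.27, and Myh7 at -1.83 ± 0.28, and also for Myl7, an atrial light chain that was listed at 0 in Sham D7, so that its fitted size of -4.18 ± 0.60 depends on the pseudocount. Myh7 had 1717 and 3213 CPM in CM2-high spots of the day 3 sections and 496, 627 and 1257 CPM in those of day 7, levels that did not overlap. The S phase list and the G2 and mitosis list each had a median day 7 effect of -0.69, beside -0.18 for all genes, and 0 of their genes passed.

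Nfe2l1 (chr11:96817414-96829968, minus strand), which encodes the stress-responsive transcription factor Nrf1 that the study is about, had 101, 119, 89.8, 117 and 97.3 CPM in CM2-high spots and 97.5, 102, 96.9, 95.9 and 105 CPM in CM1-dominant spots. The difference was 0.06 ± 0.18 (log2, SD, n = 5), higher in 3 of 5 sections and of the size of the spread.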

How the data were processed

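The 5 heart sections were measured by Visium spatial RNA-seq, and the submitters' processing notes name Space Ranger and mm10 (GRCm38). For Sham D3 the authors deposited raw UMI counts per gene and spot. For the other 4 sections they deposited sctransform-corrected values, whole numbers that are treated here as a score, since they are adjusted towards a common depth within a section. The authors deposited the label-transfer scores as a fraction from 0 to 1 for each of 11 types, shown here as percent, with each spot's raw UMI count and position. The tables were normalized per section, so levels set across sections carry that limit.

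Spots under 1000 UMIs were removed, leaving 3342. Spots were scaled to CPM over the 13711 genes that all 5 tables held, averaged per class and section, and set on a log2(CPM + 1) scale. Genes with at least 1 CPM in at least 2 profiles were tested. Fits used limma 3.58.1 (R 4.3.3) with trend and Benjamini-Hochberg adjustment. On simulated data for MI against sham in CM2-high spots with 13135 genes, the fit recovered 101 of 200 genes changed by 1 and 192 of 200 changed by 2 on the log2 scale. The simulated spread followed a trend fitted to the MI D7 sections, without a day effect or scatter between genes of like level. These counts therefore do not show how many true changes the real fit would find. Exact permutation tests were two-sided. No doublet caller was run, as spots hold several cells. Sections shared spot barcodes, which are fixed on the slide, and 0 shared barcodes had equal UMI totals.

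The members, the 24 gene lists and the tests were chosen with earlier results of these data known. The named genes were the 15 largest rises and 10 largest falls among called genes with at least 20 CPM, from each list the 4 highest members and the 2 with the largest difference, the 5 largest changes per direction past a threshold (or the 5 lowest p-values at 20 CPM or more), the 5 genes most like the CM2 score, and Nfe2l1. Gene positions are from GENCODE on GRCm38. Alternatives were median-of-ratios scaling, removal of mitochondrial and haemoglobin genes, a pseudocount of 5, the top 10% of spots, summed spots, CM1-dominant spots matched on UMI count, no filter and leaving out each section. Added after the data were seen were CM2-high spots with CM1 highest, and CM4-highest CM2-high spots against other CM4-highest spots.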

Additional observations from a re-analysis of the deposited data

Results flagged for a closer look

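The difference between CM2-high and CM1-dominant spots was not the same in MI and sham sections for 37 genes by limma. That test used values from which the spots were also chosen, so it cannot tell an effect of MI from that choice. The largest effects of MI on the difference were 3.37 for Gm50114, 2.99 for Slit3, 2.67 for Tgfbi, 2.55 for Tagln, 2.29 for Clu and -2.74 for Zfp51 on the log2 scale. Of these, Gm50114 was below 0 in both sham sections, at -1.80 and -2.07, as were Slit3, at -1.86 and -1.685, and Tgfbi, at -1.81 and -0.15. Zfp51 was above 0 in both, at 1.47 and 1.56. Groups of at most 3 sections were too small to look for single sections far from the rest.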

How the results depend on the processing

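Sections were few, and each fit had 2 residual degrees of freedom, or 1 with a section left out, where the spread of 1 section was assumed to be that of the others. The count of genes called higher was 331, and moved to 168 with a pseudocount of 5 and 134 with CM1-highest spots only, and from 352 to 649 with a section left out. The count called lower was 167, and moved to 257 without mitochondrial and haemoglobin genes, 19 with a pseudocount of 5, 82 with the top 10% of spots and 488 with CM1-highest spots only, and from 239 to 340 with a section left out. MI against sham in CM2-high spots went from 0 to 5 without mitochondrial and haemoglobin genes and from 0 to 913 with a section left out. For the MI effect on the difference, 37 became 2 with median-of-ratios scaling, 12 without mitochondrial and haemoglobin genes, 3 with the top 10% of spots, 57 with summed spots, 2 with CM1-dominant spots matched on UMI count, 20 with no filter, 0 with CM1-highest spots only and 3 to 563 with a section left out. Day 7 against day 3 went from 0 to 10 with median-of-ratios scaling, 10 without mitochondrial and haemoglobin genes, 11 with the top 10% of spots, 9 with no filter, 3 with CM1-highest spots only and 0 to 134 with a section left out. The S phase median moved to -0.0759 with CM1-highest spots only. With a section left out, the UMI difference ran from -0.0224 (without MI D3) to 0.0588 and that of neighbours from -0.0336 (without MI D7 replicate 1) to 0.193. With CM1-highest spots only, 2200002D01Rik was at -0.0211, Fibin at -0.66 and Gja5 at -0.82, and the MI effect on the difference of Slit3 was -0.0181. The cause of these changes was not tested, other than that agreement among 4 sections is easier to meet than among 5. Of the 25 genes named for their size, all 25 kept their call under median-of-ratios scaling and with summed spots, 13 with matched UMI counts and 12 with CM1-highest spots only. The median MI effect on the difference over all genes was 0.11, and 0.01 under median-of-ratios scaling. MI and sham sections came from different hearts and were not paired, while CM2-high and CM1-dominant spots were compared within each section.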

Other observations

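In the MI sections, 40 CM2-high spots had CM4 as their highest score, 11 in MI D3, 5 in MI D7 replicate 1 and 24 in MI D7 replicate 2, and these were set beside the 29, 71 and 62 other CM4-highest spots. The median difference of the 42 genes of G2 and mitosis was -0.39 on the log2 scale, with section medians of -0.19, -0.69 and -0.30, and that of the S phase list was -0.21, beside -0.11 for all genes. Single genes went both ways, as Kif23 differed by 0.53, 0.60 and -0.84 and Ccna2 by -0.15, -0.32 and 0.64, and the MI D7 replicate 1 values rest on 5 spots in which genes such as Ect2 were listed at 0. Mki67 differed by -0.11, -1.03 and -0.58. The immature cardiomyocyte list, in contrast, had a median difference of 0.19, and Nppa had 25364, 342 and 5097 CPM against 21521, 336 and 4116 CPM. These values are a description chosen after the data were seen.

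Mki67 was set beside the highest score within the CM2-high spots, also after the data were seen. In Sham D3, the 3 CM2-high spots whose highest score was CM2 had a mean of 139.9 CPM where the 24 with CM1 highest had 67.2 CPM. In Sham D7, 9 such spots had 83.6 CPM where the 30 with CM1 highest had 61.6 CPM. In MI D7 replicate 1 the 2 such spots had 65.3 CPM beside 31.5 CPM in 16 spots, and in MI D3 the single such spot had 28.6 CPM beside 66.6 CPM in 6 spots. Spots with CM5 highest in MI D3, 15 in number, had 130.8 CPM of Mki67, above the 71.2 CPM of the CM2-high spots of that section.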
